A study of Mus musculus with 4 samples.

Results

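Wnt proteins are secreted ligands, and 52 genes of their signalling pathway were followed in the brain cortex of SAMR1 mice after treatment with TCQA or water. The members were the genes whose symbol on the array begins with Wnt, Fzd, Sfrp, Dkk or Rspo followed directly by a digit. Added to them were 14 further pathway genes listed one by one, of which 11 were tested under their symbol. Ctnnb1, Dvl2 and Tcf7 were not analysed here. The 52 members were 52 of the 19572 tested transcript clusters, which were those with a single gene symbol. Each member had 1 transcript cluster (a group of probes that stands for a gene). They fell into 19 ligands, 12 receptors and co-receptors, 9 secreted antagonists, 4 R-spondins, 1 enzyme of ligand acylation and 7 intracellular members.

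SAMR1 is a mouse line with normal ageing that serves as the control of the senescence-accelerated strains. Male mice had been caged singly for 4 months from an age of 7 months, and both groups shared this history. At 11 months the TCQA group began a month of daily oral TCQA (tricaffeoylquinic acid, a plant polyphenol) at 5 mg/kg, and the control group received MilliQ water. There were 2 Clariom S arrays (probe microarrays that read well-annotated genes) per group, called TCQA 1, TCQA 2, water 1 and water 2. Whether each array carried material from a single animal or from pooled animals is not in the labels. The p-values therefore describe the spread of these arrays alone, and that spread may be technical.

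Wnt ligands bind a frizzled receptor together with a co-receptor, Lrp5 or Lrp6, at the cell surface. Without a ligand, the scaffold Axin, the tumour suppressor Apc and the kinase Gsk3b mark β-catenin for degradation, and with a ligand Dishevelled proteins relay the signal that lets β-catenin reach TCF and LEF factors on DNA. Secreted frizzled-related proteins and Wif1 bind ligands, Dickkopf proteins bind the co-receptors, and R-spondins keep receptors at the surface. In adult brain the pathway is known for its roles at synapses, in the maintenance of the blood-brain barrier and in neurogenesis.

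All values are log2 signals, and a change is the TCQA mean minus the water mean on that scale. The median of the 5222 negative control probe sets over all arrays was 6.98, and their 95th percentile was 11.1. Of the 52 members, 30 lay below that median on all 4 arrays, 18 at or above it on all 4, and 6 had a mean above the 95th percentile. For a member below the median in both groups a log2 difference is given but no fold, because its level cannot be told from that of the controls. In bulk tissue, fewer cells of a type and less RNA per cell cannot be told apart. Array medians over the tested transcript clusters were 6.98 to 7.04.

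TCQA was set against water to ask how transcripts of the pathway stood in the treated cortex. Sfrp1, a secreted frizzled-related antagonist, was the member with the largest difference and was higher in TCQA. Wnt7b, a ligand, and Dkk2, a Dickkopf protein, were also higher, and the R-spondins Rspo4 and Rspo1 were lower. The remaining members, which include all receptors and all intracellular members, did not reach an unadjusted p under 0.05.

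In limma, 5 of 52 members had an unadjusted p under 0.05, which is 9.62%, against 7.37% of all tested transcript clusters. The 3 higher members compare with 3.48% of all transcript clusters and the 2 lower ones with 3.89%. This share is close to the background and is no result about the pathway as a whole. Sfrp1 was the 1 member past the cut-offs the study used (over 2-fold with an unadjusted p under 0.05), which 0.664% of all transcript clusters met. No member passed Benjamini-Hochberg adjustment in limma, where 0 of 52 and 0 of 19572 passed, 5 and 1443 of them had an unadjusted p under 0.05, and the adjusted p of members ran from 0.642 to 0.991. A linear model without a variance prior gave 5 members with an unadjusted p under 0.05 and 0 after adjustment, but only 3 of them were the same. Rspo1 (unadjusted p = 0.132 in limma without the prior) and Wnt7b (unadjusted p = 0.0585) were lost, and Wnt4 and Wnt6 were gained.

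The members showed no common direction. Of 52, 25 were higher and 27 lower in TCQA, with a median change of -0.016 (0.036 after quantile normalisation) against 0.0028 over all tested transcript clusters. The median distance between the arrays of a group was 0.21 within TCQA and 0.26 within water, and the median size of a change was 0.20. The arrays of the groups did not overlap for 22 members (42.3%), against 39.2% of all transcript clusters, 11 with TCQA above (19.9% of all) and 11 with TCQA below (19.2% of all).

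**Figure D1:**
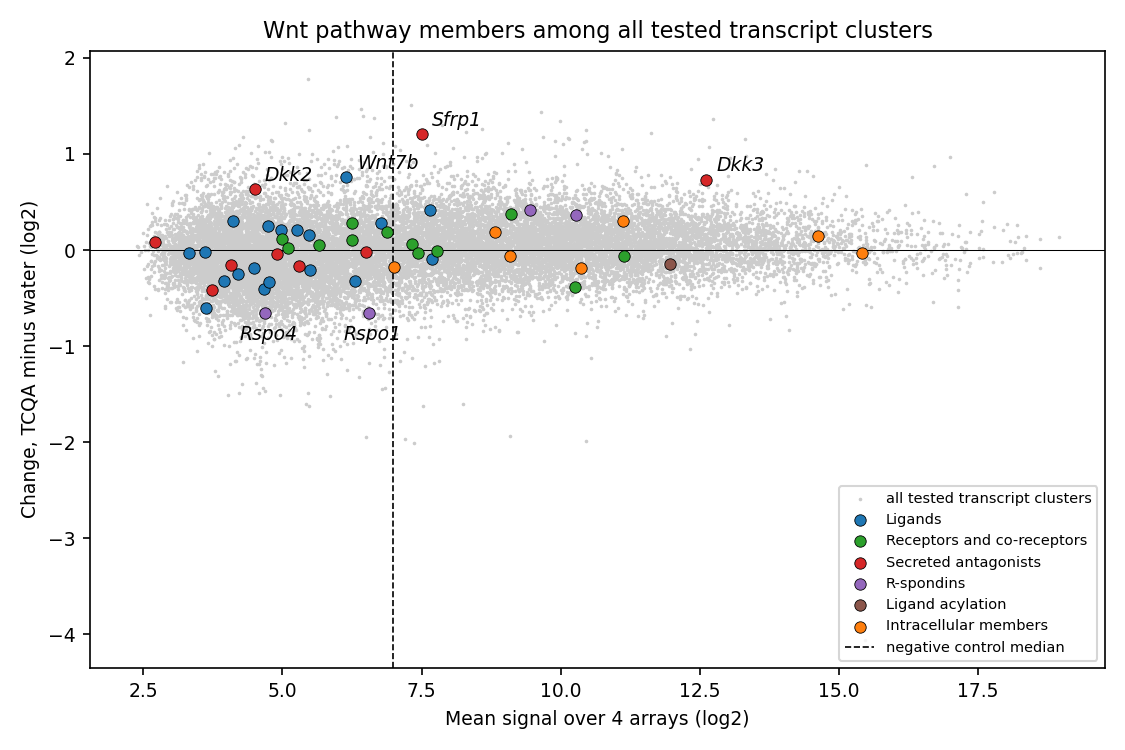
Mean log2 signal over the 4 arrays (x axis) against the log2 change, TCQA minus water (y axis), for all tested transcript clusters (grey) and the 52 members coloured by class; the dashed line is the negative control median of 6.98. Sfrp1 stands at 1.20, and Wnt7b, Dkk2, Rspo4 and Rspo1, named beside their points, lie left of the dashed line.

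Among the 19 ligands, 8 were higher and 11 lower in TCQA, with a median change of -0.029. Their changes ran from -0.60 for Wnt8a to 0.76 for Wnt7b. Of the ligands, 16 lay below the negative control median on all arrays, and 2, Wnt4 and Wnt5a, lay above it on all arrays.

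Wnt7b, a ligand that neural cells present to brain endothelium together with Wnt7a, had signals of 6.67 and 6.39 in TCQA 1 and TCQA 2 and of 5.64 and 5.90 in water 1 and water 2 (transcript cluster TC1500002003.mm.2). Both TCQA arrays lay above both water arrays, and all 4 lay below the negative control median. The change was 0.76 (SE 0.21), with an unadjusted p of 0.0105 and a limma adjusted p of 0.664. Without TCQA 1 it was 0.62 and without water 1 also 0.62, and in both fits the unadjusted p rose above 0.05, as it did with all 4 arrays and no variance prior (unadjusted p = 0.0585). Wnt7a, its close relative, differed by 0.21 (SE 0.20).

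Wnt4, a ligand best known from kidney and gonad development, had signals of 7.83 and 7.89 in TCQA and of 7.38 and 7.49 in water. The groups did not overlap, and both were narrow, with arrays 0.058 and 0.11 apart. The change of 0.42 (SE 0.19) had an unadjusted p of 0.0631. That p fell to 0.0351 when only transcript clusters above the negative control median were tested, and to 0.0211 without a variance prior.

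Wnt5a, the best-known ligand of the branches that do not use β-catenin, had signals of 7.61 and 7.69 in TCQA and of 7.77 and 7.70 in water, a change of -0.089 (SE 0.19). The groups did not overlap, but the gap between them was smaller than the spread within TCQA.

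Of the other ligands, all with means below the negative control median, Wnt6 and Wnt8a had the smallest p-values. Wnt6 had signals of 4.53 and 4.42 in TCQA and of 4.91 and 4.84 in water. Wnt8a stood at 3.45 and 3.19 in TCQA and at 3.56 and 4.28 in water, a change of -0.60 (SE 0.28) in which water 2 was the high array. Wnt3 (0.30), Wnt10a (0.28), Wnt2b (0.25), Wnt16 (0.21) and Wnt9a (0.15) had positive changes. Wnt11 (-0.33), Wnt5b (-0.32), Wnt2 (-0.32), Wnt3a (-0.25), Wnt9b (-0.21) and Wnt10b (-0.19) had negative ones. Wnt8b (-0.029) and Wnt1 (-0.018), the latter a ligand of midbrain development, stood near 0. None of them reached an unadjusted p under 0.05 in limma with the variance prior and all 4 arrays, and Wnt6 did so without the prior.

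Porcn, the enzyme that attaches the lipid that Wnt ligands need for secretion, had signals of 12.03 and 11.75 in TCQA and of 12.01 and 12.05 in water. TCQA 2 was lower than the other 3 arrays, and the groups overlapped. The change was -0.14 (SE 0.20), and without TCQA 2 it was -0.0042.

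**Figure D2:**
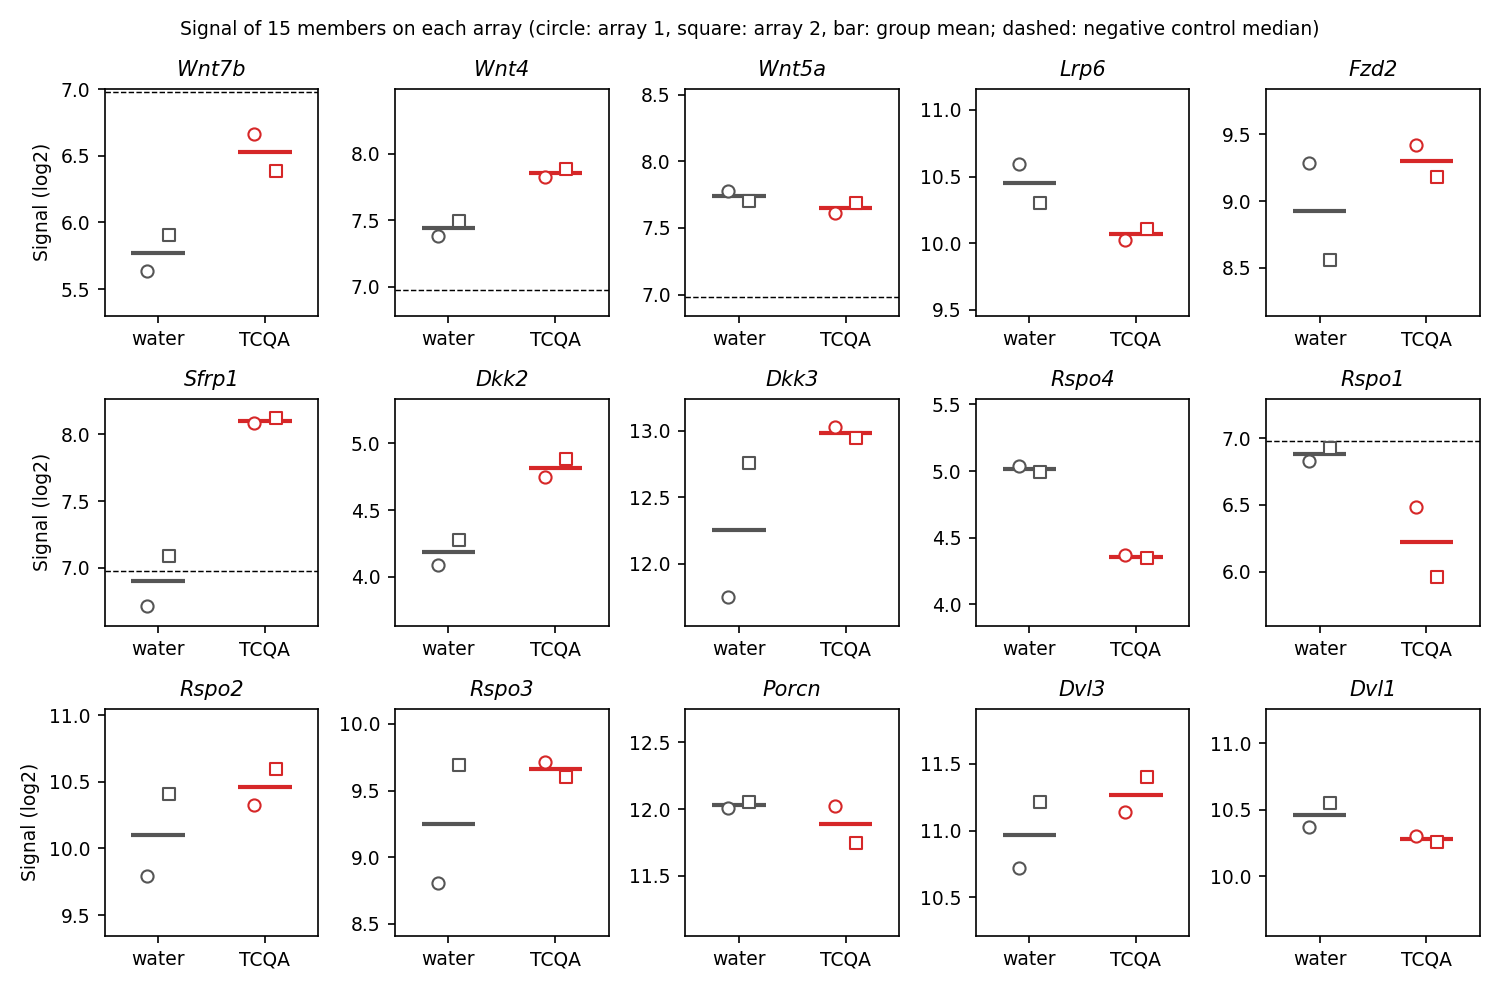
Log2 signal (y axis) of 15 members on each array, by group (x axis), with bars at the group means and a dashed line at the negative control median of 6.98 where it lies in range; every panel spans the same height. The groups do not overlap for Sfrp1, Rspo4, Dkk2, Wnt7b, Rspo1, Wnt4, Wnt5a, Dkk3, Lrp6 and Dvl1, and Dkk3, Rspo2, Rspo3 and Dvl3 have 1 low array, water 1.

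Receptors and co-receptors differed little between the groups. Of 12, 8 were higher and 4 lower, with a median change of 0.057, and 0 had an unadjusted p under 0.05 in limma, against 7.37% of all transcript clusters. The groups did not overlap for 2 of them, Lrp6 and Fzd8, which is 16.7% of the class against 39.2% of all.

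Lrp6, a co-receptor that carries the signal of Wnt ligands to Axin, had signals of 10.02 and 10.11 in TCQA and of 10.59 and 10.31 in water. Both TCQA arrays lay below both water arrays. The change was -0.38 (SE 0.20) with an unadjusted p of 0.103. Lrp5, the related co-receptor, differed by 0.051 (SE 0.23) and lay below the negative control median on all arrays.

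Fzd2, a frizzled receptor of both β-catenin-dependent and other Wnt signals, had signals of 9.42 and 9.18 in TCQA and of 9.29 and 8.56 in water. Water 2 was lower than the other 3 arrays, and water 1 lay between the TCQA arrays. The change was 0.38 (SE 0.28), and it was 0.74 without water 1 (unadjusted p = 0.0284) and 0.016 without water 2. The water array left out thus decided its size.

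Fzd3, a receptor of planar polarity and axon guidance and the frizzled gene with a mean above the 95th percentile of the negative controls, had signals of 11.18 and 11.02 in TCQA and of 11.21 and 11.10 in water. Its change of -0.058 (SE 0.19) was smaller than the distance between the arrays of either group. Fzd6, its relative in planar polarity, differed by -0.014 (SE 0.21), Fzd1 by -0.031 and Fzd7 by 0.062. Among the frizzled genes below the negative control median, Fzd8 (0.29), Fzd4 (0.18), the receptor of the non-Wnt ligand Norrin in vessels, Fzd9 (0.12), Fzd5 (0.10) and Fzd10 (0.016) had positive changes.

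**Figure D3:**
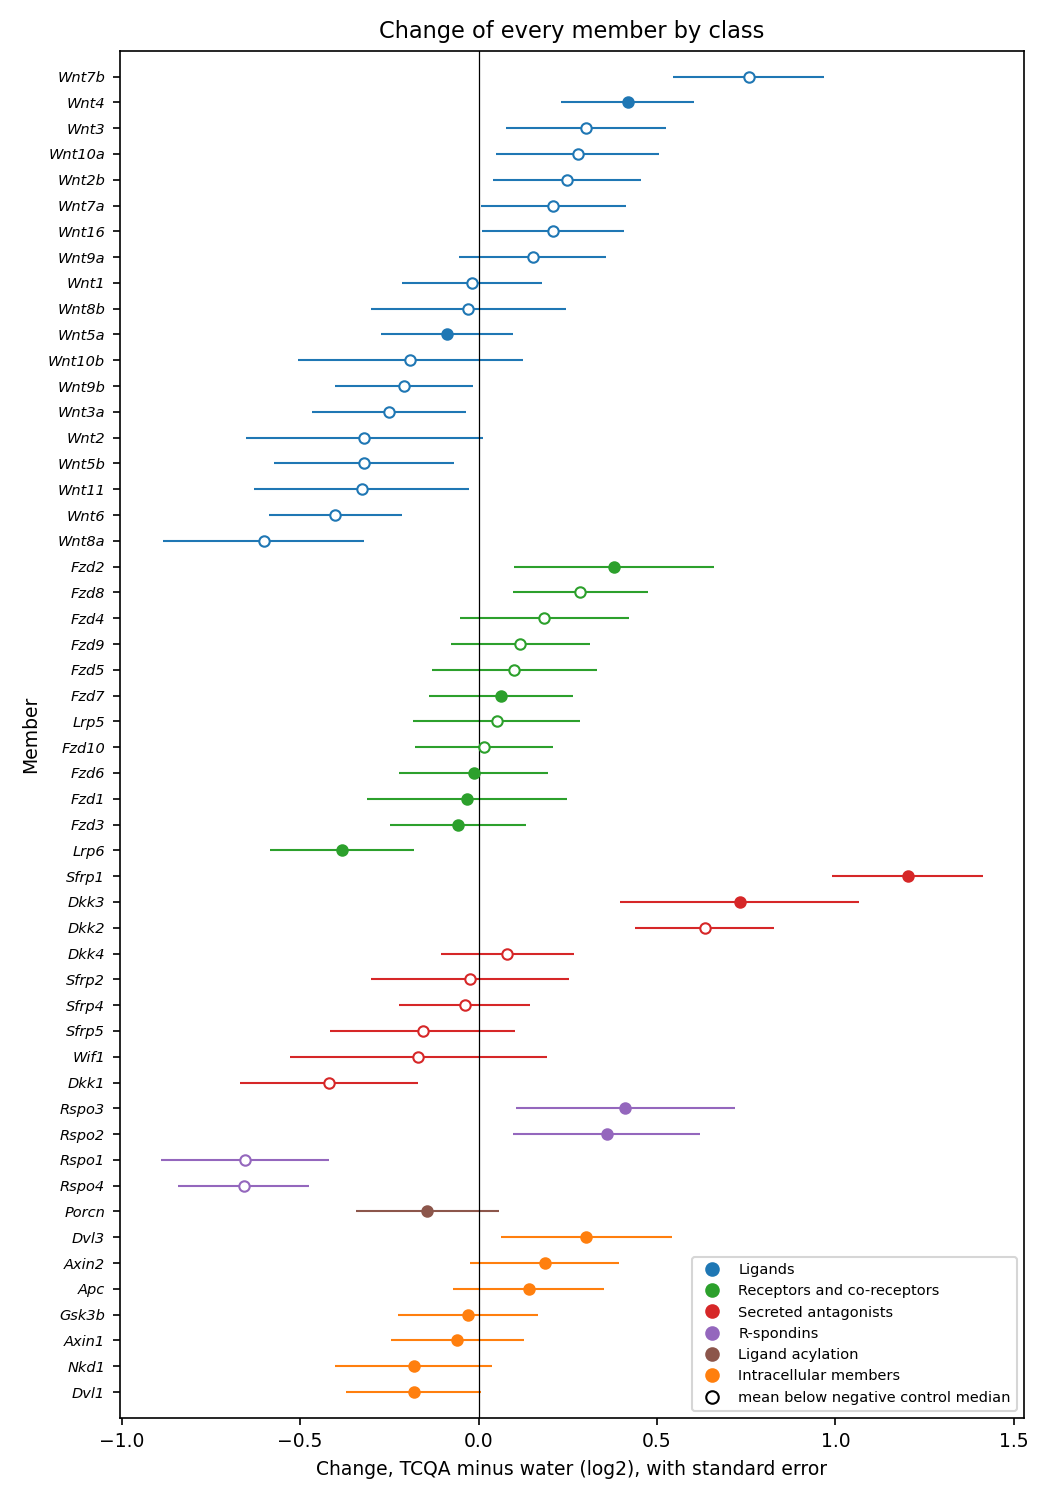
Log2 change, TCQA minus water, of each of the 52 members (x axis) with its standard error (bars), ordered by class and by change; open points have a mean below the negative control median. Frizzled receptors and intracellular members lie between -0.18 and 0.38, and the largest values in both directions belong to antagonists, ligands and R-spondins.

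The 9 secreted antagonists included Sfrp1, the member with the largest difference, but as a class they had no common direction. They were higher for 4 members and lower for 5, with a median of -0.024 (0.045 after quantile normalisation), and 2, Sfrp1 and Dkk2, had an unadjusted p under 0.05 (22.2%, against 7.37% of all transcript clusters).

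Sfrp1, which binds Wnt ligands and frizzled receptors through a domain like that of frizzled, had signals of 8.09 and 8.12 in TCQA and of 6.71 and 7.09 in water (transcript cluster TC0800000297.mm.2). The TCQA arrays were 0.034 apart and both lay above the water arrays, which were 0.38 apart. The change was 1.20 (SE 0.21, unadjusted p = 0.000999, limma adjusted p = 0.642). All signals of Sfrp1 lay below the upper percentile of the negative controls given above. As water 1 lay below the negative control median, the fold was also taken with that value raised to the median, which gave 2.10-fold higher in TCQA. Its change was between 1.01 and 1.39 when any 1 array was left out, and over 2-fold with an unadjusted p under 0.05 in all 14 alternative analyses.

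The other secreted frizzled-related genes lay below the negative control median on all arrays and did not follow Sfrp1. Sfrp2 had signals of 6.29 and 6.70 in TCQA and of 6.83 and 6.21 in water, so that each group spanned most of the same range. Its change was -0.024 (SE 0.28), that of Sfrp4 -0.039 (SE 0.18) and that of Sfrp5 -0.16 (SE 0.26). Wif1, a ligand-binding antagonist, had signals of 5.75 and 4.67 in TCQA and of 5.50 and 5.25 in water. Its change of -0.17 (SE 0.36) was smaller than the distance of 1.09 between the TCQA arrays.

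Of the 4 Dickkopf genes, 3 were higher in TCQA and Dkk1 was lower. The groups did not overlap for any of the 4, against 39.2% of all transcript clusters that did not overlap, and in Dkk1 they were nearly in contact. Dkk3, a divergent Dickkopf protein abundant in neurons and not a classical co-receptor antagonist, had signals of 13.02 and 12.94 in TCQA and of 11.75 and 12.75 in water. Water 1 was a full 1.00 below water 2, which lay close to the TCQA arrays. The change was 0.73 (SE 0.33) with an unadjusted p of 0.0684. It was 1.23 without water 2, with an unadjusted p of 0.00244, and 0.23 without water 1, so that water 1 decided its size.

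Dkk2, which can inhibit or weakly activate the co-receptor, had signals of 4.75 and 4.88 in TCQA and of 4.09 and 4.28 in water (transcript cluster TC0300001342.mm.2). Both groups lay far below the negative control median, and the arrays did not overlap. The change was 0.63 (SE 0.19, unadjusted p = 0.0155, limma adjusted p = 0.673). The unadjusted p exceeded 0.05 without TCQA 2 (0.57) and without water 1 (0.54).

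Dkk1, the classical antagonist of Lrp5 and Lrp6, had signals of 3.68 and 3.38 in TCQA and of 4.21 and 3.69 in water, a change of -0.42 (SE 0.25). TCQA 1 and water 2 were nearly equal, and water 1 was the high array. Dkk4 (0.081, SE 0.19) was the dimmest member, with signals between 2.64 and 2.79.

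The bases before the start of the genes were read from RefSeq's promoter table on GRCm38.p6, which held 36 start sites of 33 of the 52 members. The core letters CTTTGA, which TCF and LEF factors bind, were sought on both strands in the 250 bases before each start, and so was the TATA box TATAAA. The core was found at 5 of the 36 starts (13.9%) and in 13.8% of all 32851 windows of that length. It thus occurred at the members' starts about as often as at others. TATAAA was found at 6 of the 36 (16.7%), against 12.4% of all. Of the Dickkopf genes, Dkk1 is shown as the member with 2 copies of the core (174 and 117 bases before the start), and Dkk2 as a member with an unadjusted p under 0.05. Capitals mark the core, on either strand, and TATAAA, which lies 54 bases before the start in Dkk1 and 32 before it in Dkk2.
Dkk1 (GRCm38.p6, chr19:30549497-30549746, minus strand): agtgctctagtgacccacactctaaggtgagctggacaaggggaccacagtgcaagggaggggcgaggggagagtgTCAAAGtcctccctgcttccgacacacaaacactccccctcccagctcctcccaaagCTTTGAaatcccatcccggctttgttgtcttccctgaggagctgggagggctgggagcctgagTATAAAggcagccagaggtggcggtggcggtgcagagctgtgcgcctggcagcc
Dkk2 (GRCm38.p6, chr3:132085042-132085291, plus strand): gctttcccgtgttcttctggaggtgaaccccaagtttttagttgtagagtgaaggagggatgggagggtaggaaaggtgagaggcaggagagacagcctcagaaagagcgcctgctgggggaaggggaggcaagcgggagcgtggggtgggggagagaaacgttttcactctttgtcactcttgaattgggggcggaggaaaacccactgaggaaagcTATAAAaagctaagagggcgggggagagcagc
No core letters are in the Dkk2 window. A match is a description of the letters, not of binding.

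The 4 R-spondins, which act through Lgr receptors, split into a dim pair that was lower in TCQA and a bright pair with positive changes. Rspo1 and Rspo4 had unadjusted p-values under 0.05 (50% of the 4, against 7.37% of all transcript clusters), and Rspo2 and Rspo3 did not. Whether the pairs differ was not tested.

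Rspo4, known for its role in nail growth, had signals of 4.37 and 4.35 in TCQA and of 5.04 and 4.99 in water (transcript cluster TC0200002269.mm.2). The arrays of each group were 0.024 and 0.045 apart, and the groups did not overlap. The change was -0.66 (SE 0.18, unadjusted p = 0.0103, limma adjusted p = 0.664). It lay between -0.68 and -0.64 when any 1 array was left out, with an unadjusted p under 0.05 each time. All 4 signals lay far below the negative control median.

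Rspo1 had signals of 6.48 and 5.96 in TCQA and of 6.83 and 6.93 in water (transcript cluster TC0400001433.mm.2). The water arrays lay just below the negative control median, and TCQA 2 was the lowest array. The change was -0.66 (SE 0.24, unadjusted p = 0.0297, limma adjusted p = 0.673). It was -0.92 without TCQA 1 and -0.39 without TCQA 2, and the unadjusted p exceeded 0.05 without TCQA 2, without water 1 (-0.70), without water 2 (-0.61) and, with all arrays, without a variance prior.

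Rspo2, the R-spondin with the highest mean signal here, had signals of 10.33 and 10.60 in TCQA and of 9.79 and 10.41 in water. Rspo3 had signals of 9.72 and 9.61 in TCQA and of 8.81 and 9.69 in water. In both genes water 1 was the low array and water 2 lay between the TCQA arrays. The changes were 0.36 (SE 0.26) and 0.41 (SE 0.31). Without water 1 that of Rspo2 was 0.052 and that of Rspo3 -0.028, and without water 2 they were 0.67 and 0.85, each with an unadjusted p under 0.05 (0.0438 and 0.0138).

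The windows before the starts of Rspo1 and Rspo4 are shown as those of the lower R-spondins. They contain neither the core nor TATAAA, so that no letters are in capitals, and 66.8% and 69.6% of their bases are G or C.
Rspo1 (GRCm38.p6, chr4:124986180-124986429, plus strand): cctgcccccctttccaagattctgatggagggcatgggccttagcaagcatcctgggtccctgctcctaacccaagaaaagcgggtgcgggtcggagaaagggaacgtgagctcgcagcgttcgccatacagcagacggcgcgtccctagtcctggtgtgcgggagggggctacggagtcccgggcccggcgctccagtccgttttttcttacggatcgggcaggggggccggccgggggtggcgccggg
Rspo4 (GRCm38.p6, chr2:151842677-151842926, plus strand): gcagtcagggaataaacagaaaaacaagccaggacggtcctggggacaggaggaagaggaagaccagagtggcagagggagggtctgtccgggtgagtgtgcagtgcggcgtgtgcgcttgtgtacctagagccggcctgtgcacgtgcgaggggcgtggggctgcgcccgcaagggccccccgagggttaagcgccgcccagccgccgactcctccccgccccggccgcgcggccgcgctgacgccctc
Sfrp1 and Wnt7b have no entry in that table.

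The 7 intracellular members were all at or above the negative control median in their mean, and 0 of them had an unadjusted p under 0.05 in limma, against 7.37% of all transcript clusters. Of 7, 3 were higher and 4 lower, with a median of -0.030 and a range from -0.18 to 0.30. Gsk3b, the kinase that marks β-catenin, had signals of 15.44 and 15.37 in TCQA and of 15.55 and 15.32 in water. Apc, a scaffold of the destruction complex, had signals of 14.50 and 14.88 in TCQA and of 14.53 and 14.57 in water. In both genes the groups overlapped, and the changes of -0.030 (SE 0.20) and 0.14 (SE 0.21) were smaller than the largest distance within a group.

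The Dishevelled genes stood in opposite directions. Dvl3 had signals of 11.14 and 11.40 in TCQA and of 10.72 and 11.21 in water, a change of 0.30 (SE 0.24). Water 1 was low, and the change was 0.057 without it. Dvl1 had signals of 10.30 and 10.26 in TCQA and of 10.37 and 10.55 in water, a change of -0.18 (SE 0.19) with both TCQA arrays below both water arrays.

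Axin2 and Nkd1 are induced by β-catenin signalling and in turn restrain it. Axin2 had signals of 9.07 and 8.76 in TCQA and of 8.64 and 8.82 in water, a change of 0.19 (SE 0.21) with overlapping groups. Nkd1 had signals of 7.04 and 6.79 in TCQA and of 6.91 and 7.28 in water, a change of -0.18 (SE 0.22), also with overlap. Axin1, the constitutive scaffold, differed by -0.059 (SE 0.19). Neither feedback gene differed between the groups beyond the spread of its arrays.

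**Figure D4:**
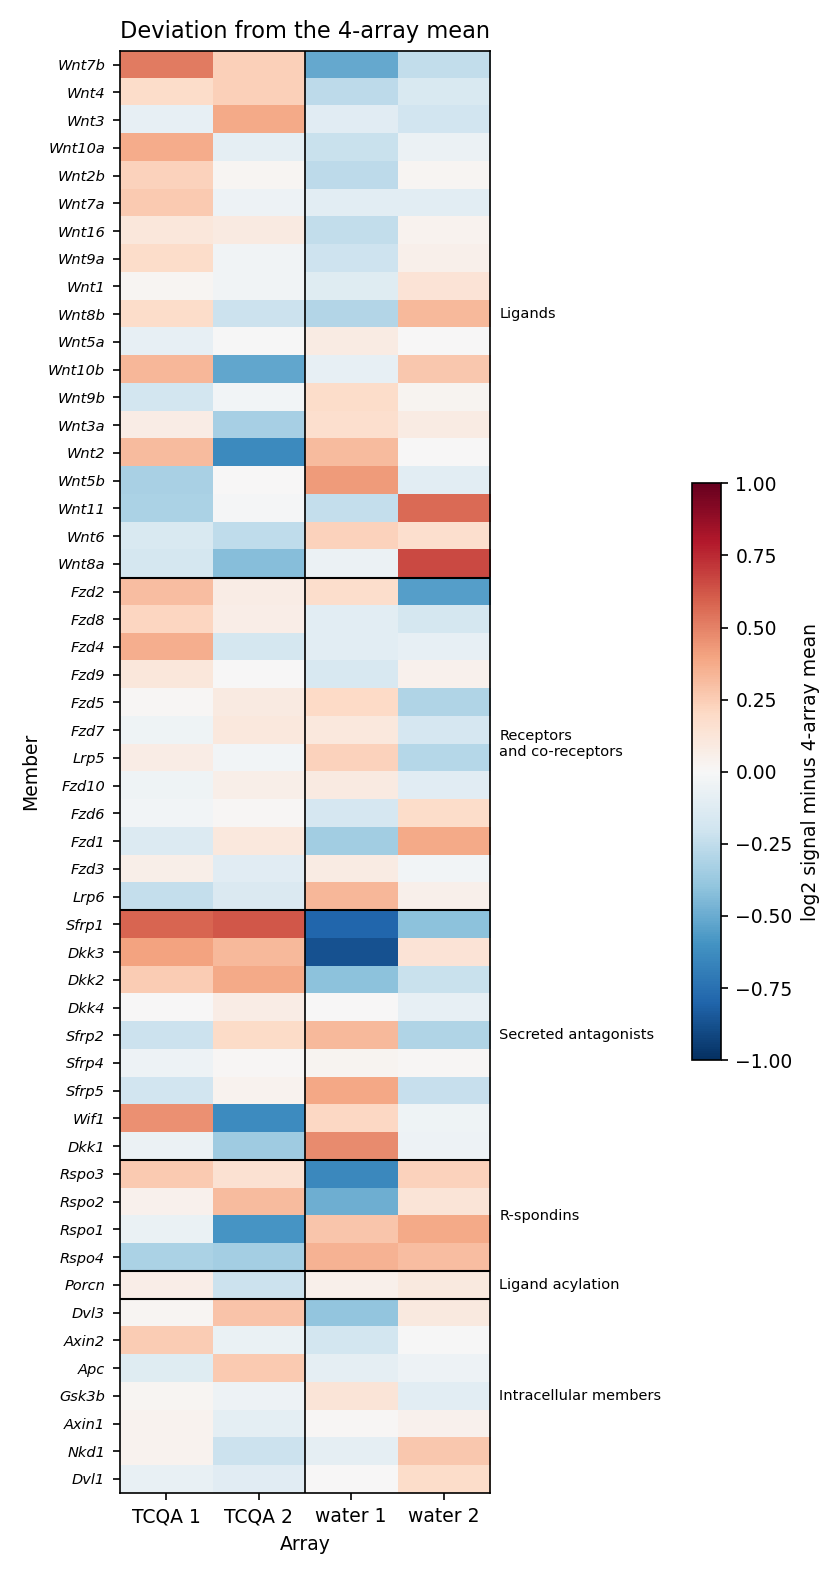
Deviation of each member's log2 signal from its mean over the 4 arrays (colour, from -1 to 1), with members in rows by class and the arrays in columns. Water 1 shows the lowest signal of 19 members, among them Dkk3, Rspo3, Rspo2 and Dvl3, and the highest of 17.

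Wider pathway lists held 141 measured genes that are no members. Of these, 12 had an unadjusted p under 0.05 in limma (7 higher, 5 lower), which is 8.51% against 7.37% of all tested transcript clusters. None passed the adjusted threshold. Their median change was 0.065. The count of 12 was 4 without TCQA 2 and 7 without water 1, and it was 12 without either of the other arrays.

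Target genes of β-catenin included Slc2a1, the gene with the smallest p among these lists. This list of 35 measured genes includes the members Axin2, Dkk1, Nkd1 and Wif1, and some of its genes are also on another list. Of the 35, 20 were higher and 15 lower. An unadjusted p under 0.05 was found for 2, both higher, which is 5.71% against 7.37% of all tested transcript clusters. Slc2a1, which carries glucose across brain endothelium, had signals of 14.88 and 14.97 in TCQA and of 14.19 and 14.13 in water, a change of 0.77 (SE 0.19). Abcb1a, an efflux pump of the same cells, had signals of 8.51 and 8.64 in TCQA and of 7.56 and 8.11 in water, a change of 0.74 (SE 0.24). Its unadjusted p exceeded 0.05 without TCQA 2 (0.68) and without water 1 (0.46), while that of Slc2a1 did not exceed it without any 1 array.

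Of 19 receptor partners, 14 were higher, and their median change was 0.26. Tspan12, a partner of Fzd4 in vessels, was the 1 gene with an unadjusted p under 0.05 (5.26%, against 7.37% of all transcript clusters). It had signals of 10.90 and 10.86 in TCQA and of 10.44 and 10.32 in water, a change of 0.50 (SE 0.19), and it lost that p whenever an array was left out. Markers of endothelium, where Slc2a1, Abcb1a and Tspan12 are abundant, were higher for 7 of 8 genes, with a mean signal of 10.32 and 10.31 in TCQA and of 9.97 and 10.05 in water. That list holds Slc2a1. The part of endothelial content in these 3 differences was not tested.

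Of the 20 ligand secretion and extracellular genes, 11 were higher and 9 lower. There were 2 with an unadjusted p under 0.05, which is 10% against 7.37% of all tested transcript clusters. Both were lower, as were 3.89% of all with such a p. Sostdc1, an antagonist of Wnt and BMP signals, had signals of 6.69 and 6.50 in TCQA and of 7.70 and 7.14 in water, a change of -0.82 (SE 0.25). Angptl4, a secreted lipase inhibitor that was listed as a modulator of the pathway, differed by -0.61 (SE 0.19) below the negative control median. Markers of choroid plexus and ependyma were lower for 11 of 11 genes, with a mean signal of 7.25 and 6.65 in TCQA and of 8.57 and 7.93 in water, and 4 of the 11 lay below the negative control median on all arrays. Sostdc1 is known as a choroid plexus gene, and the part of that tissue in its difference was not tested. Its unadjusted p exceeded 0.05 without TCQA 2 (-0.72) and without water 1 (-0.54).

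TCF and LEF factors with their co-factors numbered 29, of which 19 were higher and 10 lower. There were 4 with an unadjusted p under 0.05 (13.8%, against 7.37% of all tested transcript clusters). Tcf7l2, a TCF factor abundant in thalamus, had signals of 9.63 and 10.02 in TCQA and of 11.02 and 10.36 in water, a change of -0.86 (SE 0.28). Tcf7l1 had signals of 6.55 and 6.24 in TCQA and of 6.88 and 7.03 in water, a change of -0.56 (SE 0.21). Cdc73, a subunit of a polymerase-associated complex that binds β-catenin, differed by 0.58 (SE 0.19) and the co-repressor gene Cbfa2t2 by 0.50 (SE 0.19). Each of these 4 had an unadjusted p under 0.05 and lost it in at least 1 fit without an array. Thalamus markers, a list that holds Tcf7l2, had mean signals of 8.02 and 8.53 in TCQA and of 9.04 and 8.43 in water. Of its 9 genes, 6 were lower in TCQA. Calb2, which is on that list, is listed as an olfactory bulb marker too. Its signals were 7.91 and 11.27 in TCQA and 9.47 and 8.06 in water. The part of thalamic tissue in the Tcf7l2 difference was not tested, and that difference was -0.54 without water 1.

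In the list of destruction complex and Dishevelled partners 13 of 24 genes were higher with a median of 0.031. Of the 24, 1 had an unadjusted p under 0.05 (4.17%, against 7.37% of all tested transcript clusters). This was Nkd2, a Dishevelled-binding relative of Nkd1, with signals of 4.98 and 4.63 in TCQA and of 3.61 and 4.32 in water, all below the negative control median. Among planar polarity and Wnt-calcium genes 16 of 24 were higher with a median of 0.065. Camk2b and Vangl1 had an unadjusted p under 0.05, which is 8.33% against 7.37% of all tested transcript clusters. Camk2b, a neuronal kinase subunit, had signals of 17.48 and 17.67 in TCQA and of 17.07 and 16.93 in water, a change of 0.58 (SE 0.19). Vangl1, a planar polarity protein, differed by -0.78 (SE 0.26) below the negative control median. In fits with 1 array fewer, the unadjusted p of Nkd2 exceeded 0.05 when TCQA 1 (0.67) or water 1 (0.49) was left out. The same held for Camk2b with TCQA 2 (0.48) or water 2 (0.51) left out, and for Vangl1 with TCQA 1 (-0.51) or water 1 (-0.57) left out.

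The arrays also differed in markers of cortical cells and of neighbouring tissue. Excitatory neuron markers of cortex, 9 of 11 of which lay above the negative control median on all arrays, were lowest in water 1 for 10 of 11 genes, as were Dkk3, Rspo2, Rspo3 and Dvl3 and, among the higher members, Sfrp1, Wnt7b and Dkk2. Their mean signal was 11.35 and 11.34 in TCQA, 10.56 in water 1 and 11.20 in water 2. Striatal markers were highest in water 1 for 8 of 8 genes and had mean signals of 13.08, 12.48, 14.03 and 12.80 in TCQA 1, TCQA 2, water 1 and water 2. Olfactory bulb markers were highest in TCQA 2 for 5 of 7 genes, with a mean signal of 7.62 there and between 5.66 and 6.04 elsewhere. Myelinating oligodendrocyte markers were lower in TCQA for 7 of 7 genes, and all 7 were highest in water 1. Their mean signal was 11.49 and 11.49 in TCQA and 12.26 and 11.57 in water. Mural cell markers were higher in TCQA for 7 of 7 genes and lowest in water 1 for 6 of 7. The part of this tissue makeup in the members' differences was not tested. Without water 1, Sfrp1 stood at 1.01 and Rspo4 at -0.64, and the changes of Dkk3, Rspo2, Rspo3 and Dvl3 were between -0.028 and 0.23. The changes of Wnt7b and Dkk2 without it, given above, were also smaller than with all arrays. Leaving out water 1 does not equalise tissue makeup between the groups, so these values are no test of its part.

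**Figure D5:**
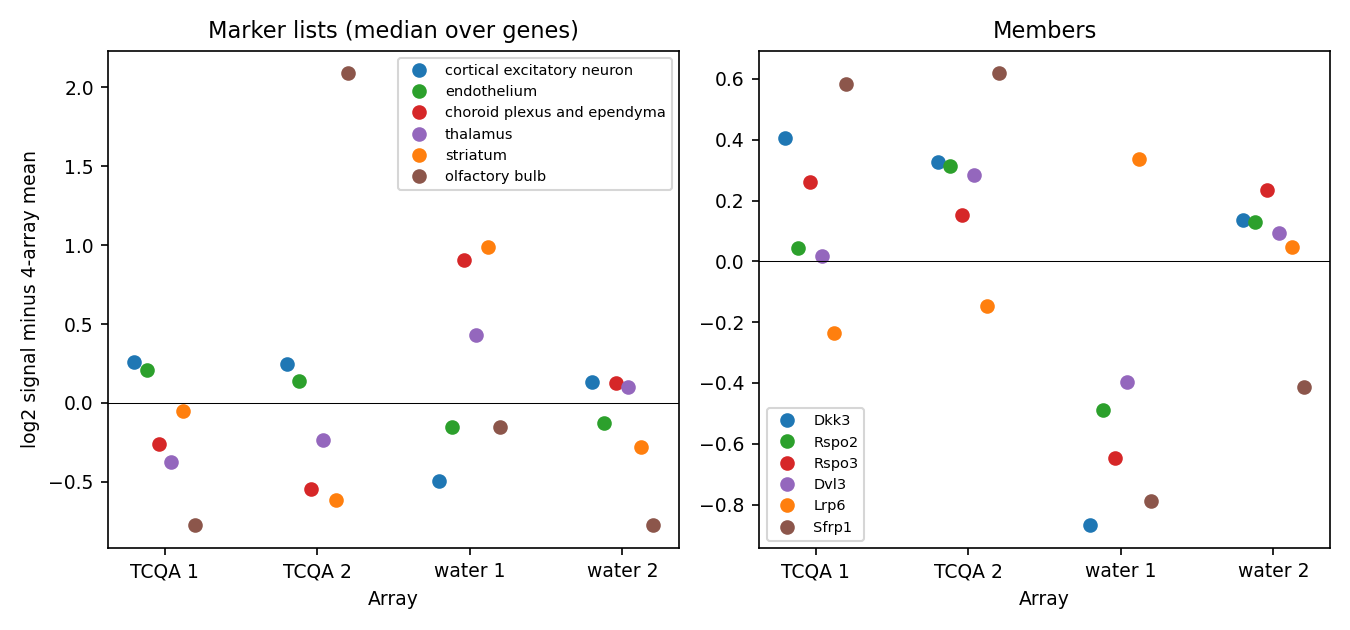
Log2 signal minus the 4-array mean (y axis) on each array (x axis), as the median over the genes of 6 marker lists (left) and for 6 members (right). In water 1 cortical excitatory neuron markers stand at -0.49 and Dkk3 at its lowest, and in TCQA 2 olfactory bulb markers stand at 2.09.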

How the data were processed

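The authors deposited log2 signals per transcript cluster. The design text names signal space transformation RMA in Transcriptome Analysis Console 4.0.2. RMA and limma appear in the submitters' processing notes. RMA equalises the distributions of arrays, so the values carry no depth. The number of arrays, 2 per group, limits the precision. No source used here gives the build behind the annotation, and the detection calls of the authors' software were not used here.

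Symbols came from the platform annotation. All 19572 transcript clusters with a single gene symbol were compared in limma 3.58.1 (R 4.3.3, lmFit and eBayes, no trend, no block). Benjamini-Hochberg adjustment was made over all of them. The fit was tested on simulated data of independent genes, with added changes larger than that of any member. That test does not cover changes of the members' size or differences shared by the genes of an array. The median SE over all tested transcript clusters was 0.22, and a change of 0.52 at that SE gives an unadjusted p of 0.05.

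The members and lists were chosen with earlier results of these data known. Values on every array are given for members with an unadjusted p under 0.05 and, per class, the 2 with the smallest p among those with a mean at or above the negative control median. Of each wider list, up to 4 genes with an unadjusted p under 0.05 were named. Other members with array values were chosen after their values were seen. The 14 alternatives covered the prior, weights, normalisation, centring, filters on dim signal, symbols with several rows, leaving out each array and a replicate block.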

Additional observations from a re-analysis of the deposited data

How the results depend on the processing

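Among values of named genes under the alternatives, 304 kept their direction and their side of an unadjusted p of 0.05, 48 lost it, 8 gained it and 1 turned, Rspo3 without water 1 (-0.028, against 0.85 without water 2). No member passed the adjusted threshold in limma under any of the 14 alternatives. Among members the count of 5 became 2 with either filter on dim signal, which left 19 members (upper 50 percent of signal) or 20 (negative control median), and Wnt4 was then called beside Sfrp1. With those filters 898 and 902 transcript clusters had an unadjusted p under 0.05 and 44 met the study's criteria, against 1443 and 130. The calls at an unadjusted p under 0.05 were 9.18% and 9.17% of the transcript clusters tested, against 7.37% without a filter. Each filter left only 2 ligands, 2 secreted antagonists (Sfrp1 and Dkk3) and 2 R-spondins. Medians over these few members were 0.16 for ligands, 0.97 for secreted antagonists and 0.39 for R-spondins under both filters. In the upper 50 percent the median was 0.062 for all members left and 0.055 for intracellular members. Quantile normalisation gave medians of 0.036 for all members and 0.045 for antagonists, without a prior 55 transcript clusters met the study's criteria, and with an intensity trend 19 wider pathway genes had an unadjusted p under 0.05. The cause of these last differences was not tested. When 1 array was left out, the lone array of a group is assumed to vary like the other group. The count of members then ran from 3 (without TCQA 2) to 8 (without water 2), that of members past the study's criteria from 1 to 2 (Dkk3 joining without water 2), that of wider genes from 4 to 12, and that of all transcript clusters past the criteria from 218 to 428. Medians ran from 0.0029 to 0.037 for all members, -0.054 to 0.15 for ligands, -0.044 to 0.15 for antagonists and -0.066 to 0.057 for intracellular members. The differences between the arrays of a group were nearly uncorrelated across genes between the groups (r = -0.0032). That correlation alone cannot show whether the replicate numbers pair the arrays, which the labels do not say. A replicate block left 5 members with an unadjusted p under 0.05 and 1 past the study's criteria. It gave 13 wider genes and 1497 transcript clusters with such a p. Signals near the negative controls limit what can be said of 32 members with a mean below 6.98. The limit is not confined to them. Most of the other members, Sfrp1 among them, had a mean below the upper percentile of the negative controls given above.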
